A study of Mus musculus with 2 samples.

Results

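Many genes can begin transcription at several places, and a start site that lies inside the gene gives a transcript that lacks the first exons of the longest form. An internal alternative promoter of this kind can add another first exon, move the start codon, or place the gene under control that differs between cell types. Promoters with many CpG dinucleotides carry sites for the widely used factors SP1, NFY and ETS, while erythroid enhancers and several erythroid promoters carry GATA sites, which GATA1 and GATA2 bind, often with TAL1 at a neighbouring CTG.

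Accessible regions near such internal start sites were described in G1E, a mouse line of erythroid progenitors labelled Gata1- (C57BL/6J, male, postnatal, age 0 days). ATAC-seq, which marks open chromatin by transposase insertion, was done on 2 biological replicates of 50000 cells each, which form 1 group and share every label. The labels do not say whether the replicates came from separate cultures, so the spread between them may be technical. At the erythroid marker genes Klf1, Tal1, Nfe2, Zfpm1, Epor and Gata1, 6 of 6 had a region near a start site in both replicates, against 1 of 20 neuron markers and 0 of 20 hepatocyte markers. Gata1 itself carries regions, but an accessible locus does not check the label.

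The peak lists of both replicates were merged into 25799 regions. A region was taken as an internal promoter region when it lay within 1 kb of a transcript start of a GENCODE M21 protein-coding gene, that start lay over 5 kb inside the gene from its outermost 5′ end, and the region lay over 1 kb from the outermost 5′ end of every gene. This gave 1279 regions, 1026 of them listed in replicate 1 and 1116 in replicate 2, at 1025 genes on 20 chromosomes. A further 209 regions near an internal start were left out because they lay within 1 kb of an outermost end. The start sites just inside the 5 kb limit belonged to Ift46 (5002 bp) and Dcdc2b (5009 bp), and those just outside it to Pef1 (4998 bp) and Park7 (4954 bp). The regions of Gabbr2 and Fstl1 lay farthest from their start within the 1 kb limit, and those of Pde4d and Pgs1 lay closest to an outermost end beyond it. Membership used position only, and accessibility entered it only through the listing of a peak.

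The sequences below, read from the RefSeq GRCm38.p6 genome (mm10), are examples of 2 kinds of sequence found among the internal promoter regions. Each runs 5′ to 3′ on the gene's strand around the summit, the point of strongest signal, cut back where an annotated exon begins. Capitals mark matches on either strand to GATA, SP1, NFY, ETS and KLF motifs. GATA is an A or a T, then GATA, then an A or a G. NFY is CCAAT, then a C or a G, then an A or a G. SP1 is GGGCGG. ETS is CCGGAAGT. KLF is CCAC, then an A or a G, then CCC. The first 3, at the histone deacetylase gene Hdac4, the endosomal iron reductase gene Steap3 and the blood stem cell factor gene Runx1, lie in intron sequence and hold SP1 or NFY matches and no GATA match. The Runx1 region was listed in replicate 2 only.

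Hdac4, chr1:92180397-92180596, minus strand: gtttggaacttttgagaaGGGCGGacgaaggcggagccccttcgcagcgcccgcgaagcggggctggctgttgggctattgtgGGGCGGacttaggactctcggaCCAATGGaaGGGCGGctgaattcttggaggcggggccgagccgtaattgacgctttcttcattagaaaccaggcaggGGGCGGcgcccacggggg

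Steap3, chr1:120265304-120265503, minus strand: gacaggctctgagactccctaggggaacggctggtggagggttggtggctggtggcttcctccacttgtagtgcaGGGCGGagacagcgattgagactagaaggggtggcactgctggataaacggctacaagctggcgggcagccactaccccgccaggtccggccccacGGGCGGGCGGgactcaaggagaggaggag

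Runx1, chr16:92697330-92697493, minus strand: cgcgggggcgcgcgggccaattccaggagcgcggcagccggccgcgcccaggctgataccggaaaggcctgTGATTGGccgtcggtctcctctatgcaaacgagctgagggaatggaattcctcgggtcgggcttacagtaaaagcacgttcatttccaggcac

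The other 3 hold GATA matches and no SP1, NFY or ETS match. They lie at Nfe2, which encodes the large subunit of the erythroid factor NF-E2, at Uros and in Nprl3. Uros is the heme synthesis enzyme gene known for an erythroid promoter inside the gene. The printed Uros stretch lies by a processed transcript start, and whether it is that promoter was not tested. The introns of Nprl3 are known to hold enhancers of the neighbouring alpha-globin genes. The summit of the printed Nprl3 region lies over 250 bp from the nearest internal start.

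Nfe2, chr15:103251754-103251873, minus strand: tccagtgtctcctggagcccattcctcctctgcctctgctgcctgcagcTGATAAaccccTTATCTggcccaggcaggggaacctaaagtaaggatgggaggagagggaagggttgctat

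Uros, chr7:133698081-133698271, minus strand: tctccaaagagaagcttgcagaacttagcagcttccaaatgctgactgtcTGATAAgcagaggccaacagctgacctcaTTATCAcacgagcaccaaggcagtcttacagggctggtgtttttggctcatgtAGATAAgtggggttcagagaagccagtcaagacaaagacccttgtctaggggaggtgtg

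Nprl3, chr11:32250945-32251144, minus strand: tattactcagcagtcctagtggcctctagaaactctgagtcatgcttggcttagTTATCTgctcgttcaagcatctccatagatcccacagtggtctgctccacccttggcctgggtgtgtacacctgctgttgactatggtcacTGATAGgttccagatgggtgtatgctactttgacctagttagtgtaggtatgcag

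In the Nfe2 stretch 2 GATA matches on opposite strands stand 5 bases apart, and both belong to a TAL1-GATA composite, a CTG 7 to 9 bases before a GATA match. The Hdac4 stretch holds 4 SP1 matches and 1 NFY match, and the Steap3 stretch holds 3 SP1 matches, 2 of which overlap. Other regions held both kinds of match or neither. A stretch in Gata1 held 1 GATA and 1 SP1 match, and the region of Araf held no GATA, SP1, NFY, ETS or KLF match. A match is a run of letters, not evidence of binding.

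Most of these genes had a single internal promoter region: 824 had 1, 160 had 2 and 41 had at least 3. Atxn7l1 and Gnas, the imprinted gene of the stimulatory G protein alpha subunit, had the highest number, 5 each. Another 8 genes had 4 each, and of these Adgrg1, Atf7ip and Fancc, the first by alphabet, fill the 5 named for their number of regions. The internal start lay a median of 20.2 kb inside the gene (quartiles 10.1 and 47.3 kb), and 304 of the 1279 (23.8%) lay over 50 kb inside. The farthest was a start of Pde4d, a cyclic AMP phosphodiesterase gene, 1453 kb inside. Genes with such a region were long, with a median of 50.4 kb against 39.5 kb for all 9353 genes that have an eligible internal start and 17.4 kb for all protein-coding genes. In all, 949 summits lay in introns, 329 in exons and 1 outside the annotated genes, and the regions were 150 to 1394 bp wide with a median of 443 bp.

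The summits gathered at the start sites and just upstream of them. The 100 bp upstream of the start held 398 summits (31.1%), the next 100 bp upstream held 115 and the first 100 bp downstream held 115, while the other 100 bp steps within 1 kb held 22 to 48 each. Counting both sides, 706 summits (55.2%, 95% Wilson interval 52.5 to 57.9) lay within 250 bp of the start, and the other 573 lay farther away. Of the regions listed in both replicates 61.5% had their summit within 250 bp, against 42.1% of those listed in 1 replicate. This division at 250 bp was set after the distances had been seen, and it is used below to describe start-proximal and start-distant regions.

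**Figure D1:**
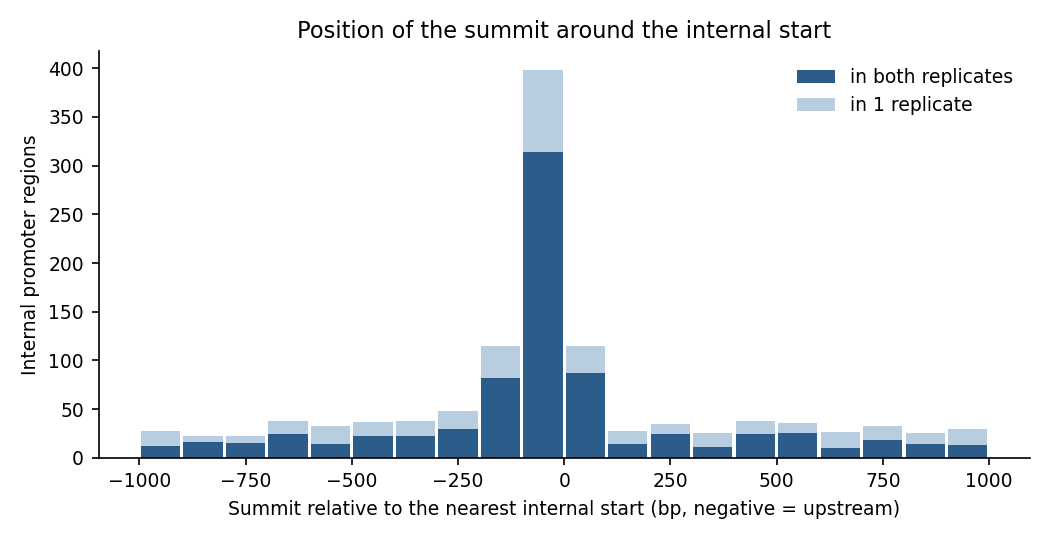
Number of internal promoter regions by position of the summit relative to the nearest internal start, in steps of 100 bp, with regions in both replicates dark and regions in 1 replicate light. The step just upstream of the start holds 398 regions, and the 106 regions whose summit lies over 1 kb away are not drawn.

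The type of transcript that begins at the internal site went with how often the site had a region. Of 27827 eligible internal starts, 8.98% had a region within 1 kb. For starts of protein-coding transcripts whose 5′ end is annotated as found the share was 18.9% (1273 of 6748). It was 8.65% for transcripts subject to nonsense-mediated decay and 7.0% for processed transcripts. Retained introns had 5.40% and coding transcripts whose 5′ end was not found 3.23%. With the summit required to lie within 250 bp, the shares were 13.1%, 4.92%, 3.04%, 2.81% and 1.03% in the same order. Start sites of a gene can share a region, so these counts are not independent. All Wilson and Newcombe intervals here treat sites, regions or genes as independent and cover counting error only.

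Among the members, 633 (49.5%) had at their nearest start a protein-coding transcript with its 5′ end found. Another 279 had a retained intron, 256 a processed transcript, 60 a coding transcript with no 5′ end found and 51 a transcript subject to nonsense-mediated decay. The coding starts with the 5′ end found had 70.5% of their summits within 250 bp, a CpG-rich sequence in 46.6% and a GATA match in 26.2%. Processed transcripts had 38.7% of their summits within 250 bp, a CpG-rich sequence in 12.1% and a GATA match in 53.5%. A curated RefSeq mRNA began within 100 bp of the internal start for 52.8% of the start-proximal regions and 18.2% of the start-distant ones, a difference of 34.7 percentage points (95% Newcombe interval 29.7 to 39.4). Where the transcripts at the internal and at the outermost start both had an annotated start codon, 281 of 544 regions lay at a transcript with another start codon and 263 at a transcript with the same one.

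Internal promoter regions ranked lower than outermost promoter regions and higher than intronic regions away from starts. Signal is the deposited value of each peak. What it is relative to is not given and it was not scaled here between libraries. It was therefore ranked within each replicate's own list, from percentile 0 to 100. The median percentile was 48.1 in replicate 1 and 49.2 in replicate 2 for internal regions, a mean of 48.7 ± 0.798 (SD, n = 2). Outermost promoter regions, the 8889 within 1 kb of the outermost 5′ end of a protein-coding gene, had medians of 65.3 and 66.4. The 6918 intronic regions over 1 kb from every start had medians of 41.1 and 41.6. Start-proximal internal regions had medians of 56.8 and 55.6, and start-distant ones 39.0 and 40.4, so the latter stood below the intronic medians in both replicates.

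The share listed in both replicates followed the same order. It was 67.5% for internal regions (863 of 1279, interval 64.9 to 70.0), the same as the 67.5 percent over all 25799 regions. It reached 81.3% at outermost promoters, 13.9 points higher (11.2 to 16.6), and 59.8% for intronic regions, 7.67 points lower (4.82 to 10.4). Start-proximal regions were listed in both in 75.2% and start-distant ones in 57.9%, a difference of 17.3 points (12.1 to 22.4), while the start-distant and intronic shares differed by −1.86 points with an interval that holds 0 (−6.10 to 2.28). Absence from a list does not show closed chromatin, since the depth of the libraries is unknown.

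Sequence composition split the internal promoter regions along the same line. A ratio of observed to expected CpG of at least 0.6 in the 200 bp around the summit was found in 30.0% of internal regions, against 33.0 percent of all regions, 76.5% of outermost promoter regions and 2.99% of intronic regions. The share was 44.2% (40.6 to 47.9) for start-proximal and 12.6% (10.1 to 15.5) for start-distant regions, a difference of 31.6 points (26.9 to 36.1). Even the start-distant regions exceeded intronic regions by 9.57 points (7.07 to 12.6), and the start-proximal ones stayed 32.4 points below outermost promoters (28.6 to 36.1). The intronic class has no summit in an exon, while 100 of the 573 start-distant summits lie in exons, so these classes are not matched. The median GC content was 59.5% in start-proximal, 52.0% in start-distant, 63.0% in outermost and 48.5% in intronic regions.

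Motifs of CpG-rich promoters were found mostly near the internal start. SP1 matches occurred in 44.2% of start-proximal regions and 15.4% of start-distant ones, a difference of 28.8 points (24.0 to 33.4), against 59.1% at outermost promoters, 7.89% in intronic regions and 28.8 percent of all regions. NFY matches occurred in 17.0% and 8.38%, against 24.9%, 7.39% and 14.6 percent in the same order. ETS matches occurred in 5.10% (36 regions) and 0.873% (5 regions), against 8.90%, 0.520% and 3.79 percent. For NFY and ETS the start-distant and intronic shares had differences whose intervals hold 0, 0.990 points (−1.11 to 3.61) and 0.352 points (−0.185 to 1.51). The NRF1 motif GCGCATGC occurred in 2.69% of start-proximal and 0.349% of start-distant regions, against 4.67% at outermost promoters, 0.434% in intronic regions and 2.05 percent of all regions. The YY1 motif AAGATGGC occurred in 3.12% and 0.698%, against 4.20%, 1.17% and 2.23 percent in the same order.

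GATA matches ran the other way. They occurred in 494 internal regions (38.6%), which was below the 42.1 percent of all regions: in replicate 1 the share was 40.5% and in replicate 2 38.0%, a mean of 39.3 ± 1.81% (SD, n = 2). Start-distant regions held a GATA match in 51.0% and start-proximal ones in 28.6%, a difference of 22.3 points (17.0 to 27.5). Both shares lay between those of outermost promoters (13.5%) and intronic regions (64.9%): the start-proximal share exceeded that of outermost promoters by 15.2 points (11.9 to 18.7), and the start-distant share was 13.9 points below that of intronic regions (9.70 to 18.2). The TAL1-GATA composite, each match of which contains a GATA match, was found in 9.07% of start-proximal and 15.9% of start-distant regions, against 1.99% at outermost promoters, 19.4% in intronic regions and 11.5 percent of all regions. GATA1 is the factor named as missing from this line, and the letters do not tell GATA1 from other GATA factors.

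RUNX matches (TGTGGTT) occurred in 4.53% of start-proximal and 6.28% of start-distant regions, against 10.6% of intronic and 6.91 percent of all regions. AP-1 matches (TGACTCA or TGAGTCA), which include every match to the longer NF-E2 motif, occurred in 6.37% and 9.25%, against 7.95 percent of all regions. CTCF matches occurred in 1.98% and 4.71%, a difference of −2.73 points (−4.94 to −0.767), against 3.53 percent of all regions, and the start-distant share differed from the intronic one by 0.448 points with an interval that holds 0 (−1.09 to 2.55). KLF matches occurred in 8.64% and 8.55%, at the 8.64 percent of all regions, and 41.3% of the regions with a KLF match also held an SP1 match. The TATA letters TATAAA were found in 2.97% and 6.46%, a difference of −3.48 points (−6.01 to −1.17). Their share was 2.62% at outermost promoters, 8.38% in intronic regions and 5.84 percent of all regions. The shares cover a fixed 200 bp around the summit, and 514 of the 1279 summits lay within 100 bp of the nearest internal start. The windows of the other start-proximal regions and of all start-distant regions do not reach that start.

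**Figure D2:**
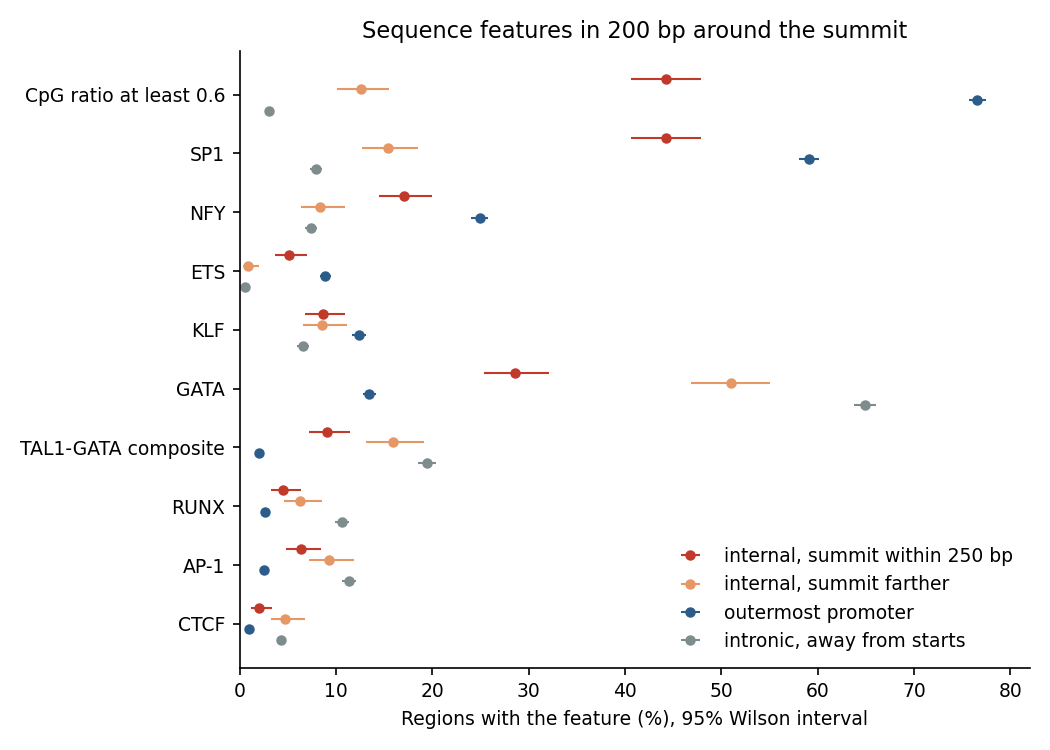
Share of regions with each sequence feature in the 200 bp around the summit (x axis, percent), with bars for 95% Wilson intervals, for start-proximal and start-distant internal promoter regions, outermost promoter regions and intronic regions away from starts. The start-proximal share lies between the outermost and the intronic share for CpG, SP1, NFY, ETS and GATA.

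The outermost promoter also had a region in 557 of the 1025 genes (54.3%, 51.3 to 57.4), 505 of them (49.3%) in replicate 1 and 537 (52.4%) in replicate 2, a mean of 50.8 ± 2.21% (SD, n = 2). The background was 50.8 percent of the 9353 genes with an eligible internal start and 40.0 percent of all 21938 protein-coding genes. Against the 8328 eligible genes with no internal region (50.4%), the difference was 3.93 points (0.690 to 7.15). This difference did not hold up: its interval held 0 with either replicate left out (2.74 points without replicate 1 and 1.07 points without replicate 2), and it turned to −0.495 points with a window of 500 bp. The share of genes with an accessible outermost promoter was thus not shown to depend on having an internal region.

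Within these genes the share differed with where the summit lay. Of 641 genes with a start-proximal region 49.1% had a region at the outermost promoter, against 63.0% of the 384 genes with start-distant regions only, a difference of −13.9 points (−19.9 to −7.61). It was −15.6 points without replicate 1 and −12.9 points without replicate 2, with intervals below 0. With protein-coding transcripts only it was −7.94 points and its interval held 0 (−16.5 to 0.785).

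In 468 genes (45.7%) the outermost promoter had no region in either list, and 54 of these had one in the authors' more lenient lists. In 31 of the 468, a region lay at another start within 5 kb of the outermost end. The annotation differed between the groups. RefSeq Select, the transcript that RefSeq picks to represent a gene, was matched for 1004 of the 1025 genes. It began within 1 kb of an internal start with a region in 211 of 457 genes without an outermost region (46.2%), against 112 of 547 genes with one (20.5%), a difference of 25.7 points (19.9 to 31.3). It began within 1 kb of the outermost end in 36.5% and 70.7%. At the outermost end itself, a coding transcript with its 5′ end found began in 84.0% of genes with an outermost region and in 77.4% of those without.

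Where a gene had a region at both places, the outermost one was more often the stronger. In replicate 1 the internal region had the higher percentile in 169 of 415 genes (40.7%), with medians of 52.5 for internal and 64.1 for outermost regions. In replicate 2 it was higher in 189 of 474 genes (39.9%), with medians of 53.6 and 65.6. Of the 345 genes with all 4 values, the outermost region was higher in both replicates in 167, the internal region in 113, and the order differed between replicates in 65. For genes with a start-proximal region the internal region was higher in both in 73 of 215, and for the other genes in 40 of 130.

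**Figure D3:**
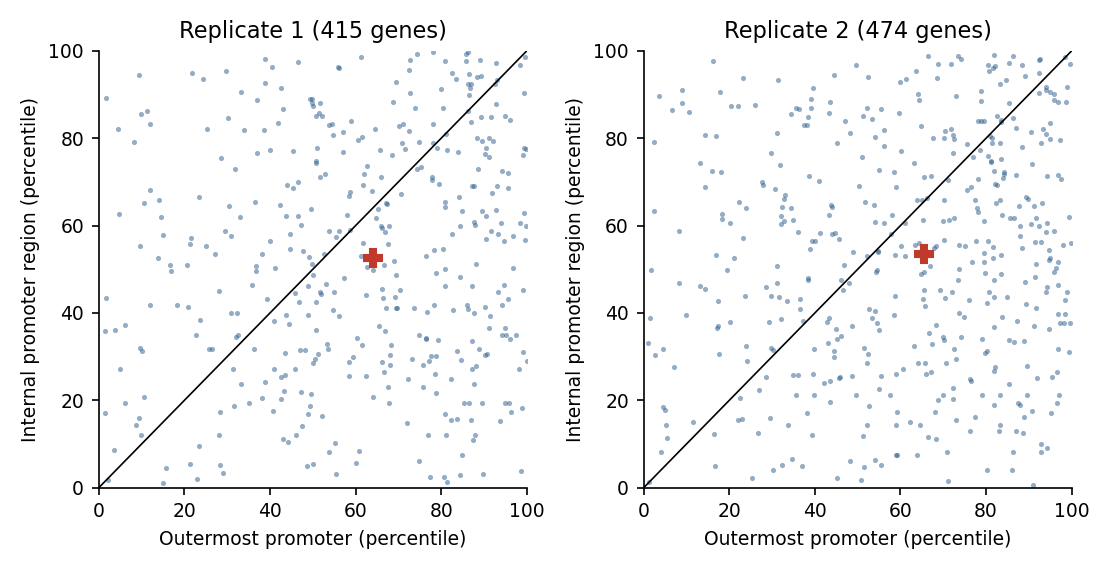
Signal percentile of the strongest internal promoter region (y axis) against that of the outermost promoter (x axis) for each gene with both, by replicate, with the line of equal percentile and the medians as a cross. The cross lies below the line in both panels, at 52.5 against 64.1 in replicate 1 and 53.6 against 65.6 in replicate 2.

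The strongest internal promoter regions came near the top of both lists. The region of Uggt2, a glucosyltransferase of glycoprotein folding in the endoplasmic reticulum, had signals of 20.9 and 22.1 in replicates 1 and 2, at percentiles 99.8 and 99.7 (chr14:119007195-119007990). It lay 91.9 kb inside the gene at the start of a processed transcript, with its summit just upstream, and the outermost promoter had no region. Cep290, a gene of the ciliary transition zone, had percentiles of 99.7 and 98.9 at a region near a retained intron start. Its outermost promoter stood lower, at 86.2 and 81.8.

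Bicdl1 (99.7 and 98.3), Acacb (99.8 and 97.2) and Aktip (98.1 and 98.7) also had a strong internal region and none at the outermost promoter. Acacb encodes the mitochondrial form of acetyl-CoA carboxylase, and its region held 3 KLF matches and 1 SP1 match. In Aktip the RefSeq Select transcript begins at the internal start, 65.9 kb inside. Zfand4 (99.2 and 98.8), Lcmt1 (98.6 and 98.9), Heatr1 (99.3 and 98.0), the calpain inhibitor gene Cast (97.8 and 98.8) and Plscr2 (99.6 and 96.8) complete the 10 strongest. Each of these 5 had an outermost region that was weaker in both replicates. Lcmt1, which methylates protein phosphatase PP2A, showed the lowest outermost percentiles of the 5, 61.1 and 66.5. Its RefSeq Select transcript begins at the internal start, 8.20 kb inside.

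Further genes with a strong internal region and none at the outermost promoter in either list were Zfp458, Pcyt1b, Fstl1, Araf, Lman1 and Hif1a. Their internal percentiles lay between 95.9 and 99.8 in both replicates. The summit lay within 250 bp of the start in these genes except Fstl1, where it lay farther upstream. Hif1a, the oxygen-regulated subunit of hypoxia-inducible factor, had its region 6.53 kb inside (97.3 and 95.9), and the RefSeq Select transcript begins close by. That of Araf, a RAF kinase gene, begins at its internal start, 50.7 kb inside. In Zfp458, Pcyt1b and Lman1 the RefSeq Select transcript likewise begins within 1 kb of the internal start. In Fstl1 it begins within 1 kb of the outermost end. Pcyt1b and Hif1a had an outermost region in the lenient lists.

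The 455 regions of the 201 genes with at least 2 had median percentiles of 39.8 and 39.7, against 54.1 and 54.8 for the 824 regions of genes with 1. The 5 regions of Gnas lay 13.5 to 60.3 kb inside, 3 of them in both replicates, and its outermost promoter had no region. The strongest, at a retained intron start, had percentiles of 46.7 and 60.9, and the region by the start 13.5 kb inside, where the RefSeq Select transcript begins, had 16.6 and 31.3. Of the 5 regions of Atxn7l1, the 4 listed in replicate 1 ranged from percentile 0.760 to 60.2 there, while its outermost promoter stood at 87.9 and 92.9. Fancc, a Fanconi anemia core complex gene, had no outermost region, and its RefSeq Select transcript begins 65.5 kb inside. Its strongest internal region, 66.0 kb inside, had percentiles of 88.9 and 88.6. The strongest of Adgrg1 had 76.6 and 73.1, and that of Atf7ip 70.9 and 60.3. Pde4d, Ank2 and Frmd4a held the starts farthest inside. Of their 5 regions only that of Frmd4a was listed in both replicates (10.8 and 27.3).

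Gene lists were read against the 11.0 percent of eligible genes with an internal promoter region. Among blood transcription factors and cofactors 15 of 48 eligible genes had such a region (31.3%, 19.9 to 45.3), and among heme, globin and iron genes 6 of 17 (35.3%, 17.3 to 58.7). Red cell membrane and skeleton genes had 7 of 30 (23.3%, 11.8 to 40.9), and genes known from textbooks for alternative promoters 12 of 47 (25.5%, 15.3 to 39.5). The intervals of the cytokine signalling list, 6 of 35 (17.1%, 8.10 to 32.7), and of the chromatin list, 9 of 55 (16.4%, 8.86 to 28.3), held the background. Neuron markers had 0 of 17 and hepatocyte markers 0 of 4. The lists were chosen with results of these data known, and gene length and activity, which differ between lists, were not matched.

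**Figure D4:**
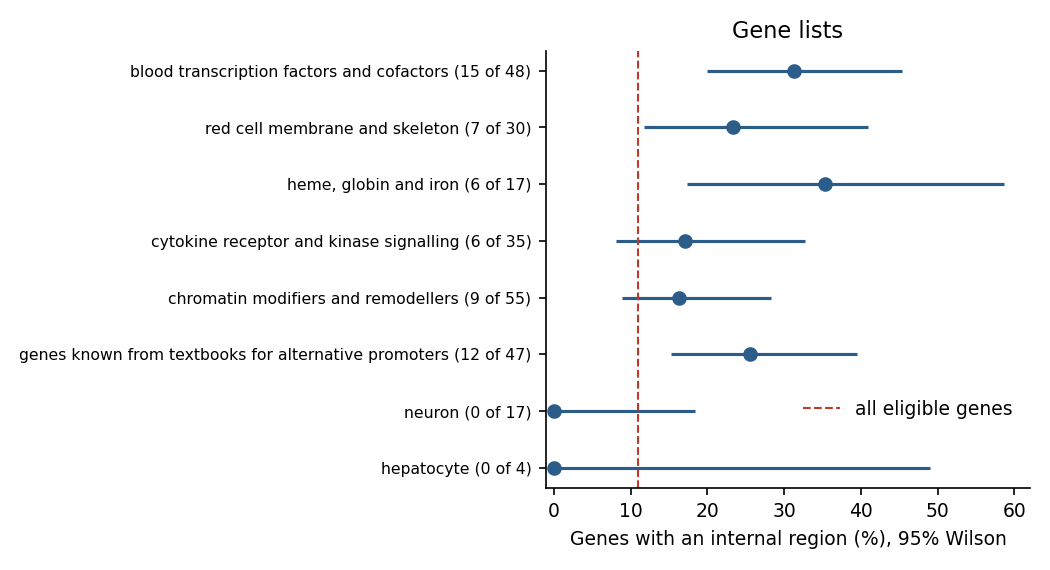
Share of the eligible genes of each list named in the text that have an internal promoter region (x axis, percent), with 95% Wilson intervals and a dashed line at the 11.0 percent of all eligible genes. The blood factor and the heme, globin and iron lists have the highest shares, 31.3% and 35.3%, with wide intervals.

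The 15 blood factor genes held 25 regions, and 10 of the 15 also had an outermost region. The share was 54.3% over all 1025 genes with an internal region and 66.2% over the 65 genes of the list. Tcf3, the E2A gene, whose proteins dimerise with TAL1, had a region 11.8 kb inside at percentiles 76.8 and 88.1, close to its outermost promoter at 83.8 and 85.4. Mllt3, a blood stem cell regulator, had a region 227 kb inside at 77.1 and 80.0, above its outermost promoter at 45.3 and 67.6. The ETS factor gene Elf1 likewise stood higher at the internal start (77.3 and 71.4) than at the outermost promoter (40.1 and 38.6), and so did Lmo2, the bridging cofactor of the TAL1 complex (64.5 and 57.0 against 30.4 and 23.3). Nfe2 showed the opposite order, with 31.7 and 36.9 at the region printed above against 88.8 and 91.2 at the outermost promoter. The RefSeq Select transcript begins within 1 kb of the internal start in Lmo2 and of the outermost end in Elf1 and Mllt3.

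In Spi1, the gene of the myeloid factor PU.1, the RefSeq Select transcript begins 14.3 kb inside the GENCODE gene. The region at an internal start near it had percentiles of 71.0 and 68.0, and the outermost end had 77.9 and 75.5. In Gata1 the RefSeq Select transcript begins 10.2 kb inside, and the outermost end had no region. The 3 Gata1 regions were weak: the 1 at 13.9 kb inside had percentiles of 13.8 and 16.6, the 1 upstream of the start at 10.2 kb had 16.2 and 12.4, and the 1 at that start was listed in replicate 2 only, at 2.04.

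Runx1 is known for a distal and a proximal promoter, and the internal start 129 kb inside lies at the latter. Its region was listed in replicate 2 only, at percentile 49.9, and the other region, in the neighbouring exon, had 10.2 there. The outermost promoter was listed in both replicates at 3.00 and 19.4, so the 2 replicates do not give the same picture of this gene. Ldb1, the dimerising cofactor that joins enhancers to promoters, had 30.4 and 38.1 at a region with 4 SP1 matches, and its outermost promoter appeared only in the lenient lists. Sox6, which acts in globin silencing, had 23.0 and 29.3, and Foxp1 had 17.5 and 20.5 at a start 427 kb inside. The stronger region of Tcf4 had 60.2 and 66.3, against 47.2 and 66.1 at its outermost promoter. That of Klf3 had 31.9 and 48.9, against 50.8 and 64.9. The strongest of Nfatc1 had 37.1 and 32.0 with no outermost region. Nfix, also without an outermost region, was listed in replicate 2 only (5.71).

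Of the 6 heme, globin and iron genes 3 had an outermost region, against 54.3% of all genes with an internal region and 80.0% of the 35 genes of the list. The 2 regions in Nprl3 had percentiles of 74.5 and 85.7 and of 60.0 and 71.7, with 2 GATA matches each and no outermost region. They lie near starts of processed transcripts, and the summit of the first is start-distant. Steap3 had 80.4 and 72.4 at an internal start 7.42 kb inside and no outermost region. Uros had a region with 3 GATA matches at 67.7 and 65.8, by a processed transcript start 12.0 kb inside. Another Uros region, at the start of a coding transcript with its 5′ end found, 7.53 kb inside, had 54.9 and 49.8. The outermost promoter of Uros had 58.7 and 77.3. The internal regions of Cpox and of the ferritin autophagy receptor gene Ncoa4 stood at 13.0 or lower, far below their outermost promoters. Slc11a2, an iron transporter gene, had a region in replicate 1 only (21.4).

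Of the 7 red cell membrane and skeleton genes only Cd47 had an outermost region. The share was 54.3% over all genes with an internal region and 60.5% over the 38 genes of the list, and 7 genes are few. Tpm3, a tropomyosin gene, had 4 internal regions, the strongest at 71.0 and 67.6. Ank1, which encodes the ankyrin that ties spectrin to the membrane, had 2, the first 121 kb inside at 53.3 and 68.8 and the other 60.3 kb inside at 15.1 and 40.1. The first of these is start-distant, by a coding transcript whose 5′ end was not found. Sptbn1, a non-erythrocytic beta-spectrin gene, had 48.9 and 68.6, Tpm1 15.2 and 64.7 and the adducin gene Add3 17.0 and 43.9. The replicates of Tpm1 and Add3 thus stood far apart, with replicate 2 higher. Cd47 had 23.1 and 18.9 at the internal start against 75.6 and 81.8 at the outermost promoter, and Add2 was listed in replicate 1 only (17.4). The RefSeq Select transcript of Cd47 begins within 1 kb of its internal start.

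In the cytokine list Jak1, the Janus kinase gene, had 98.5 and 97.0 at a region 110 kb inside and 99.5 and 99.7 at its outermost promoter. The internal region of Jak1 is start-distant, upstream of a processed transcript start. Grb2, an adaptor between receptors and Ras, had 81.9 and 86.1 at the internal start, and its outermost promoter was listed in replicate 2 only (10.6). Pik3r1, the regulatory subunit gene of phosphoinositide 3-kinase, had 2 internal regions, the stronger at 55.8 and 50.8. Vav2 had 53.0 and 51.7, Pik3cd 25.8 and 16.4, and Plcg1 was listed in replicate 2 only (18.9).

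**Figure D5:**
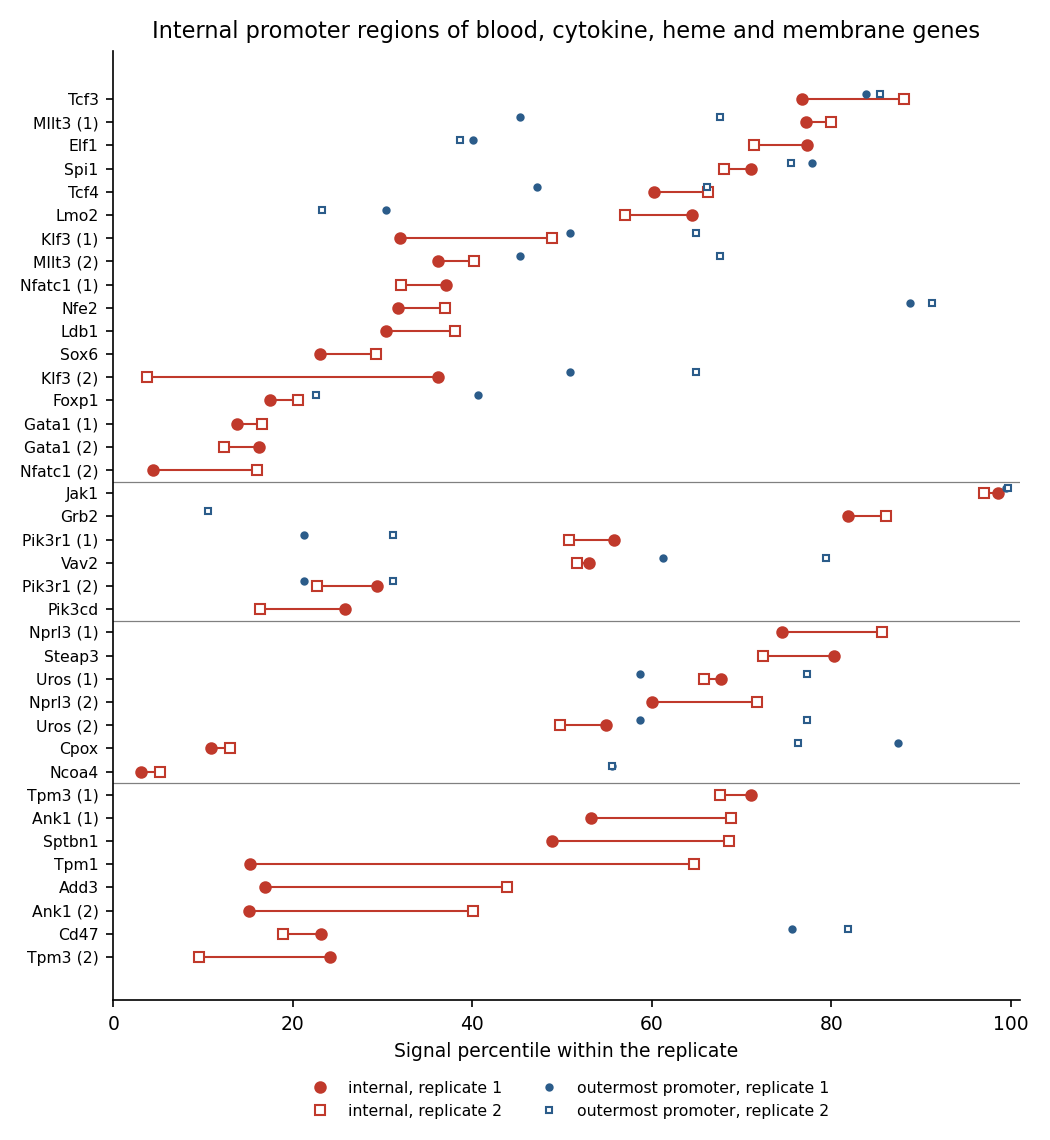
Signal percentile in each replicate of the internal promoter regions listed in both replicates at genes of, from the top, the blood factor, cytokine, heme and iron, and membrane lists, with small blue points for the outermost promoter where it has a region. Nfe2, Cd47, Cpox and Ncoa4 have internal regions far below the outermost promoter. Elf1, Lmo2, Tcf4 and the stronger Mllt3 region stand above it in both replicates, Tcf4 only slightly in replicate 2.

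Chromatin genes included Hdac4, whose internal start, 15.4 kb inside and also the start of the RefSeq Select transcript, had 92.9 and 91.9 with no outermost region. Kdm2a had 88.8 and 92.3, Chd8 84.9 and 90.5 and Kat6b 81.2 and 80.6. Dnmt1, the maintenance DNA methyltransferase, is known for an oocyte promoter upstream of the somatic one. Its region 6.91 kb inside, where the RefSeq Select transcript begins, had 72.1 and 85.4, and the outermost promoter had none. Hdac5 had 40.3 and 49.5. Of the textbook genes Pax6, an eye and brain factor, had 73.7 and 68.5 at its internal start, and the glucocorticoid receptor gene Nr3c1 had 45.7 and 49.96 with no outermost region.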

How the data were processed

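ATAC-seq peaks of 2 G1E replicates were used as the authors deposited them. Per the labels the build is mm10. The sequencing depth is unknown, and for the aligner and the peak caller the answer is: not given in the sources used here. The deposited signal of a peak was used without scaling between libraries, and what it is relative to is not given. The per-replicate lists thresholded by the irreproducible discovery rate (26083 and 27810 peaks) were merged where intervals overlapped or touched, and each region took the summit and percentile of its strongest peak. Distances were measured from the region's edge to GENCODE M21 starts, and motif and CpG windows were 200 bp of the RefSeq GRCm38.p6 genome, where 99.9% of 27907 GENCODE start codons read ATG. Regions on unplaced scaffolds and mitochondrial genes were left out.

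The 18 motifs, the gene lists (blood factors, membrane, heme, cytokine, chromatin, textbook promoters, neuron, hepatocyte; 1 further list is not reported here) and the members were chosen with earlier results of these data known. Named genes were the 10 highest members by mean percentile, the 10 highest with no outermost region and the 5 genes with most members. Also named were every gene with a member in the first 4 lists and up to 6 of each other list. The 5 members farthest inside and those at the limits complete the set. Shares have 95% Wilson and differences 95% Newcombe intervals, and no p-value was computed over regions. The code was tested on simulated data. Alternatives were other start sets, windows, lists and left-out replicates. Python 3.11.15, pandas 2.3.3, scipy 1.17.1 and pysam 0.24.0 were used.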

Additional observations from a re-analysis of the deposited data

How the results depend on the processing

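Of 116 values recomputed under 15 settings, 56 moved by less than the criterion (1.5 times for counts, 1 SD between replicates or the 95% interval otherwise) and 60 moved more, for causes that were not tested. The 1279 regions and 1025 genes became 821 and 652 with protein-coding transcripts only, 668 and 553 with transcripts of support level 1 and 605 and 565 in the stronger 50% of regions, and the lenient lists gave 2001 regions. The share in both replicates was 72.8% with protein-coding transcripts, 72.8% with support level 1, 61.2% with lenient lists, 71.3% and 64.5% with windows of 500 and 2000 bp, 72.4% in the stronger 50% and 64.2% with a reciprocal overlap of 50%.

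The share of genes with an outermost region was 46.8% with protein-coding transcripts, 44.3% with support level 1, 59.5% with lenient lists, 48.1% in the list of both replicates together, 48.2% and 60.8% with windows of 500 and 2000 bp, 37.2% in the stronger 50%, 46.0% with regions in both replicates, and 48.0% to 51.6% with 1 replicate left out. Its excess over eligible genes without an internal region, an alternative added after seeing the data, turned to −0.157 points with support level 1, −0.495 with a window of 500 bp and −1.99 in the stronger 50%. Its interval held 0 in 6 further settings, at 0.847 to 3.02 points, and lay above 0 in 4, at 4.20 to 9.44 points. The difference by summit position stayed negative in 13 of 13 settings, from −15.8 to −7.94 points, and its interval held 0 only with protein-coding transcripts.

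The median percentile was 52.1 with protein-coding transcripts, 52.0 with support level 1, 56.1 with lenient lists, 52.2 and 45.6 with windows of 500 and 2000 bp, 74.5 in the stronger 50%, 57.4 in both replicates, and 46.9 to 48.9 with 1 replicate left out. The CpG-rich share was 27.5% for starts over 10 kb inside, 43.0% with protein-coding transcripts, 48.4% with support level 1, 22.5% with lenient lists, 36.2% and 23.4% with windows of 500 and 2000 bp, 36.2% in the stronger 50% and 34.6% in both replicates. The GATA share was 28.6% with protein-coding transcripts, 26.3% with support level 1, 35.0% and 43.7% with windows of 500 and 2000 bp, and 26.3% in 100 bp around the summit. The ETS share was 2.36% for starts over 10 kb inside, 4.63% with protein-coding transcripts, 5.24% with support level 1, 2.30% with lenient lists and 2.19% in 100 bp. The share of eligible genes with an internal region was 10.3% with distance from the summit, 13.1% with protein-coding transcripts, 14.1% with support level 1, 16.4% with lenient lists, 8.90% in the list of both together, 9.41% and 14.1% with windows of 500 and 2000 bp, 6.04% in the stronger 50%, 7.93% in both replicates, and 9.13% to 9.75% with 1 replicate left out. No paired analysis was possible because the samples form 1 group. The unknown depth limits all statements on regions that are not listed.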
